A study of Homo sapiens with 4 samples.

Results

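Kinesins are motor proteins that use ATP to move along microtubules or to take their ends apart. Some carry vesicles, organelles and ciliary cargo between divisions, and others build the mitotic spindle, move chromosomes and complete cytokinesis. The mitotic kinesins are made mainly in G2 and M phase, so their transcripts are commonly read as part of the cell division programme. U2OS, an established human osteosarcoma line, expresses both kinds.

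The genes were taken by name: every protein-coding gene whose symbol starts with KIF followed by a digit or by C. This gave 43 of the 58735 genes in the deposited count table. Of these, 12 formed the mitotic kinesins (KIF2C, KIF4A, KIF11, KIF14, KIF15, KIF18A, KIF18B, KIF20A, KIF20B, KIF22, KIF23 and KIFC1) and 31 the other kinesins. The second group holds mainly cargo transport and ciliary motors, and also KIF1BP, which the naming rule takes in although it encodes a kinesin-binding protein and not a motor. CENPE and STARD9 encode kinesins whose symbols the rule misses, and they are described with the partner genes.

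RNA-seq was done on 2 U2OS libraries labelled shGREM1, a knockdown of the bone morphogenetic protein antagonist gremlin 1, and on 2 U2OS libraries labelled shControl. The labels do not give the hairpin sequences, whether a line was 1 clone, or whether replicate libraries are from different cultures. A p-value here therefore reflects only how far these 4 libraries spread, and that spread may be technical. The libraries held between 15492826 and 16353015 counts. GREM1 itself had 1 count in each shGREM1 library, against 2 counts in the first and 0 in the second shControl library, so the knockdown could not be checked and the differences below are differences between the labelled libraries. Mesenchymal and osteosarcoma markers (SPARC, COL1A1, VIM, RUNX2 and COL1A2) summed to 2798 and 2626 CPM (counts divided by the TMM-scaled library size and multiplied by 1e6) in shGREM1 and 2078 and 2007 CPM in shControl, with COL1A2 at no more than 1.22 CPM in any library. SPARC and COL1A1 rose among them, and the part of this difference in the kinesin values was not tested. The 4 leukocyte markers summed to at most 2.79 CPM, the 4 endothelial markers to at most 19.5 CPM and the 4 neuronal markers to at most 31.4 CPM in a library. The 4 epithelial markers summed to 82.2 and 109 CPM in shGREM1 and 96.5 and 106 CPM in shControl, most of it CLDN4, while EPCAM rose to 11.3 and 10.9 CPM in shGREM1, against 5.18 and 6.02 CPM in shControl (edgeR adjusted p = 0.0123). The part of EPCAM-expressing cells in the kinesin values was not tested.

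Of the 43 genes, 38 passed the filter on low counts. KIF2B, a relative of KIF2C, had 0 counts in all 4 libraries, which allows up to 3 counts, or between 0.183 and 0.194 CPM, in a library. KIF4B, KIF6, KIF12 and KIF25 had between 0 and 10 counts in each library and were not tested. The lowest gene that was tested, KIF19, a motor that limits ciliary length in mice, had 33 and 23 counts in shGREM1 and 16 and 35 counts in shControl.

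The order of the levels was set by length-scaled values (FPKM, computed here as CPM divided by the deposited gene length in kilobases). In the 19 kinesins where it was checked, this length equalled the union of a gene's exons in GENCODE 29. The expressed forms of a gene may be shorter, so FPKM is not a count of transcripts. KIFC2, a motor of the kinesin-14 family, had the highest level, at 58.6 ± 13.1 FPKM in shGREM1 and 58.4 ± 5.38 FPKM in shControl (SD, n = 2 each). The next was KIF2C, which encodes the microtubule depolymerase MCAK, at 47.2 ± 4.60 FPKM in shGREM1 and 41.0 ± 3.49 FPKM in shControl. In shGREM1 these neighbours overlapped, since KIFC2 had 49.3 and 67.9 FPKM and KIF2C 50.5 and 44.0 FPKM. KIF5B, the widely expressed heavy chain of kinesin-1, followed at 32.6 ± 1.28 FPKM in shGREM1 and 32.8 ± 2.34 FPKM in shControl. Mitotic kinesins held 6 of the 10 highest places, and the lowest of them, KIF20B, stood at place 24 with 6.68 ± 0.736 FPKM in shGREM1 and 5.66 ± 0.589 FPKM in shControl. Of the neuronal or ciliary motors, KIF1A, KIF5A, KIF9, KIF17 and KIF27 lay between 0.908 and 3.80 FPKM. Others lay outside this range, with KIF7 between 8.81 and 12.3 FPKM, KIF5C at up to 4.44 FPKM and KIF19 at no more than 0.402 FPKM. Of the 43 genes, 7 averaged less than 1 FPKM.

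**Figure D1:**
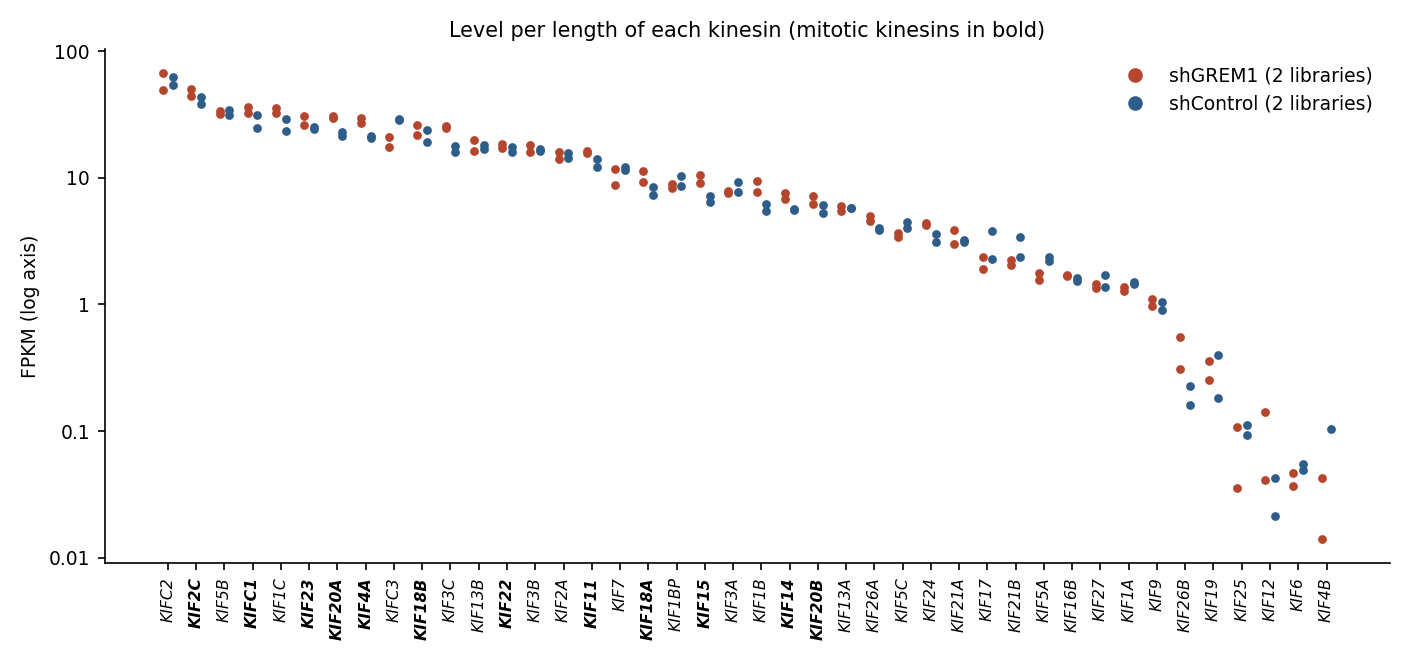
Length-scaled level (FPKM, log axis) of each kinesin in the 2 shGREM1 and the 2 shControl libraries, ordered by the mean over all libraries, with mitotic kinesins in bold. Values of 0 are not drawn (KIF2B in all libraries and KIF4B in shControl-1), and KIFC2 and KIF2C lead the order at 38.5 FPKM or more in every library.

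Summed over the 12 mitotic kinesins, the level was 267 and 255.2 FPKM in shGREM1, against 225 and 204 FPKM in shControl. Summed over the 31 other kinesins it was 274 and 305 FPKM in shGREM1 and 287 and 279 FPKM in shControl. The mitotic sum was thus higher in both shGREM1 libraries, while the other sum overlapped between the groups. Mitotic kinesins made up 49.3% and 45.6% of the summed kinesin FPKM in shGREM1, against 43.9% and 42.2% in shControl. In bulk RNA, a larger share of cells in G2 or M phase and more of these transcripts per cell cannot be told apart.

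All 12 mitotic kinesins had a positive log2 fold change (shGREM1 minus shControl), and KIF15, KIF20A and KIF4A rose. The changes were small: the median log2 fold change was 0.29, and the range ran from 0.11 for KIF22 to 0.53 for KIF15. By edgeR's quasi-likelihood test at an adjusted p below 0.05 over all 18442 kept genes, 3 of the 12 rose, 0 fell and 9 did not pass. Over all kept genes the median log2 fold change was 0.00, 50.6% of genes lay above 0, 3.57% rose and 4.12% fell. Both shGREM1 libraries lay above both shControl libraries for 10 of the 12 genes, against 27.0% of all kept genes, and the groups overlapped for KIF18B and KIF22. At an unadjusted p under 0.05, 7 of the 12 were higher, against 11.1% of all kept genes. No test of the list was made, so these counts describe the 12 genes only.

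KIF15, a plus-end motor that can stand in for KIF11 in keeping spindle poles apart, had 55.9 and 48.1 CPM in shGREM1, against 34.3 and 37.7 CPM in shControl. Both shGREM1 values were the higher, and the 2 groups did not meet. KIF15 (ENSG00000163808, chromosome 3, 44761717 to 44873376, plus strand, GRCh38) rose 1.44-fold (log2 0.53 ± 0.13 SE, adjusted p = 0.0184 by edgeR).

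KIF20A, which carries the chromosomal passenger complex to the spindle midzone, had 121 and 119 CPM in shGREM1, against 90.9 and 84.7 CPM in shControl. The libraries of each group lay close together, and the gap between the groups was wider than the gap within either. KIF20A (ENSG00000112984, chromosome 5, 138178719 to 138187715, plus strand) rose 1.37-fold (log2 0.45 ± 0.11 SE, adjusted p = 0.0179 by edgeR). Its exons share 132 bases with BRD8 and 68 bases with CDC23, both on the opposite strand, and these genes had log2 fold changes of 0.13 and 0.24 and did not pass.

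KIF4A, a chromokinesin that limits microtubule growth at the midzone, had 134 and 124 CPM in shGREM1, against 97.4 and 93.0 CPM in shControl. Here too both shGREM1 libraries were above both shControl libraries. KIF4A (ENSG00000090889, chromosome X, 70290090 to 70420832, plus strand) rose 1.36-fold (log2 0.44 ± 0.11 SE, adjusted p = 0.0212 by edgeR). KIF4B, an intronless and nearly identical copy of KIF4A, had 1 and 3 counts in shGREM1 and 0 and 7 counts in shControl, far below the 1436 counts or more of KIF4A in each library.

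Each of these 3 calls was lost when a single library was left out. KIF20A and KIF4A did not pass without shControl-1 (edgeR adjusted p = 0.0614 and 0.0849) or without shControl-2 (0.139 and 0.136). KIF15 did not pass without shGREM1-1 (0.0581) or without shControl-1 (0.144). Across these fits the log2 fold changes stayed between 0.40 and 0.50 for KIF20A, between 0.38 and 0.50 for KIF4A and between 0.42 and 0.63 for KIF15. The median of the 12 ranged from 0.26 to 0.34. The number that rose was 0 without shControl-1, where 1.35% of all genes rose, and 1 without shControl-2, where 1.98% rose. It was 4 without shGREM1-1 and 4 without shGREM1-2, where 5.11% and 4.79% of all genes rose.

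**Figure D2:**
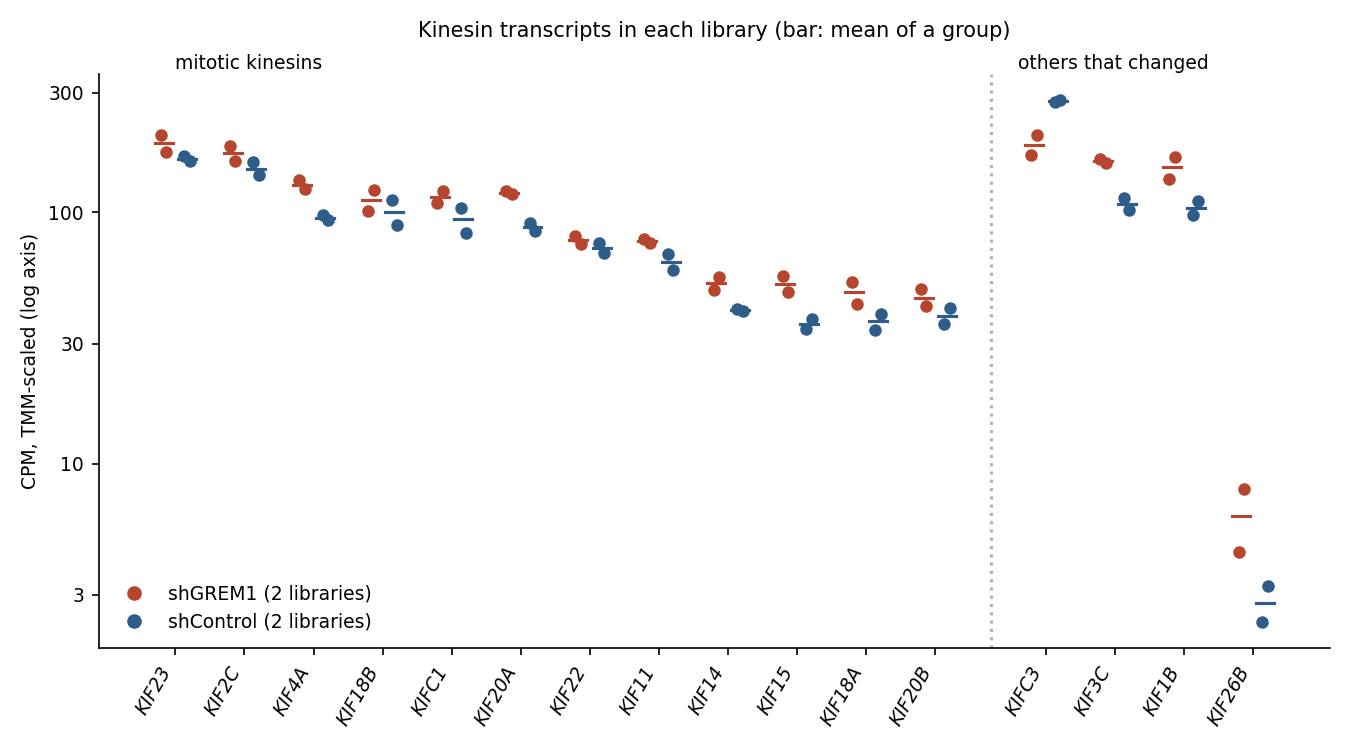
CPM (TMM-scaled, log axis) of the 12 mitotic kinesins and of the 4 other kinesins that changed, with shGREM1 left of shControl for each gene, a point for each library and a short bar for the group mean. For 10 of the 12 mitotic kinesins both shGREM1 points lie above both shControl points, and KIFC3 is the 1 gene drawn that fell.

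The 9 mitotic kinesins that did not pass had edgeR adjusted p-values from 0.0816 to 0.619. Among the spindle pole motors, KIF11, which slides antiparallel microtubules apart, had 78.6 and 75.9 CPM in shGREM1 and 68.3 and 59.1 CPM in shControl, and KIFC1, a minus-end motor that draws poles together, had 109 and 121 CPM in shGREM1 and 105 and 83.1 CPM in shControl. Their log2 fold changes were 0.28 ± 0.12 and 0.30 ± 0.12 (SE; edgeR adjusted p = 0.158 and 0.159). The groups of both genes were apart, by less for KIFC1, whose shControl-1 value came within 5 CPM of shGREM1-1.

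Among the motors of microtubule ends and chromosomes, KIF18A, which damps chromosome oscillations, had 52.7 and 43.3 CPM in shGREM1 and 34.1 and 39.5 CPM in shControl (log2 fold change 0.38 ± 0.13). KIF2C had 184 and 160 CPM in shGREM1 and 158 and 140 CPM in shControl (0.21 ± 0.11). The groups were apart for both genes, though the lower shGREM1 value of KIF2C stood barely above the higher shControl value. KIF18B, which acts on astral microtubule ends with KIF2C, had 101 and 122 CPM in shGREM1 and 112 and 89.1 CPM in shControl (0.15 ± 0.13), and the chromokinesin KIF22 had 80.3 and 74.9 CPM in shGREM1 and 75.5 and 68.7 CPM in shControl (0.11 ± 0.11). For KIF18B and KIF22 the groups overlapped, and KIF18B had a log2 fold change of -0.01 without shControl-2.

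Among the cytokinesis motors, KIF14, which works with citron kinase, had 49.3 and 55.5 CPM in shGREM1 and 41.1 and 40.5 CPM in shControl (log2 fold change 0.36 ± 0.12; edgeR adjusted p = 0.0816). KIF23, the motor subunit of centralspindlin, had 203 and 173 CPM in shGREM1 and 167 and 160 CPM in shControl (0.20 ± 0.11). KIF20B had 49.3 and 42.2 CPM in shGREM1 and 35.9 and 41.7 CPM in shControl (0.24 ± 0.13). The groups did not meet for these 3 genes, by the narrowest margin for KIF20B. Over the 9 genes the 95% intervals of the log2 fold change lay between -0.13 and 0.67. The interval held 0 for KIF2C, KIF18B, KIF20B, KIF22 and KIF23 and lay above 0 for KIF11, KIF14, KIF18A and KIFC1, whose adjusted p missed the threshold.

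Libraries of a group also differed in these genes. In shGREM1, 9 of the 12 mitotic kinesins were higher in shGREM1-1 than in shGREM1-2, and KIFC1, KIF14 and KIF18B were the other way round. In shControl, 9 of the 12 were higher in shControl-1 than in shControl-2. The median absolute log2 difference between the libraries of a group over the 12 genes was 0.18 in shGREM1 and 0.15 in shControl, against 0.18 and 0.16 over all kept genes.

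**Figure D3:**
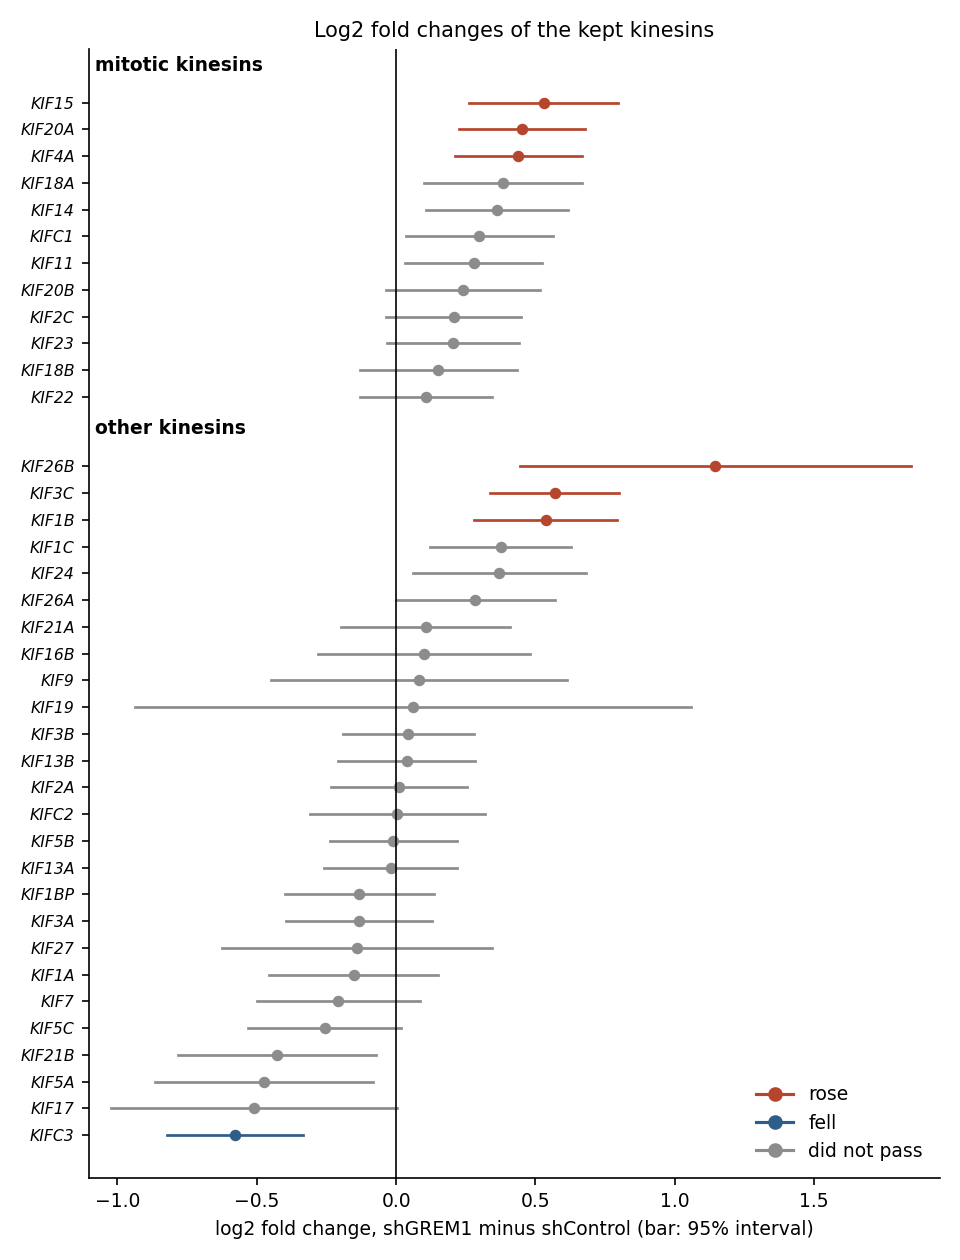
Log2 fold change (shGREM1 minus shControl) with its 95% interval for the 38 kept kinesins, mitotic kinesins above the other kinesins and each set sorted by value. All 12 mitotic values lie right of 0, with 3 that rose, while the other kinesins run from -0.58 for KIFC3 to 1.15 for KIF26B.

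The log2 fold change varied with the deposited gene length over kept protein-coding genes. Split into quartiles of the deposited gene length, kept protein-coding genes had median log2 fold changes of -0.10, -0.03, -0.00 and 0.04 in order of increasing length. The mitotic kinesins lay in the middle quartiles, with 8 in the second and 4 in the third. With length and GC content of the genes corrected for in each library, the median of the 12 was 0.26, and KIF15, KIF20A and KIF4A still passed (edgeR adjusted p = 0.0207, 0.014 and 0.0179).

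Promoter windows were searched for elements that G2/M genes often carry. The naming rule used no sequence, but the mitotic list names genes by their role in division. The motif counts of that list are therefore not independent of how it was chosen. Many G2/M genes are known to carry a cell cycle genes homology region (CHR), a site bound by the DREAM and MMB complexes, close to the start site, and CCAAT boxes bound by NF-Y upstream of it. Windows of 300 bases, from 250 before to 50 after a RefSeq start site (GRCh38.p14), were searched on both strands. The CHR hexamers were TTTGAA, which reads TTCAAA from the opposite strand, and TTCGAA, which reads the same from either strand. The NF-Y box was CCAAT, which reads ATTGG from the opposite strand. Windows were found for 35 of the 43 genes, 34 by symbol and KIF1BP through its current symbol. They covered all 12 mitotic kinesins. In no kinesin window did a hexamer overlap a CCAAT match.

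A CHR hexamer was present for 10 of the 12 mitotic kinesins, against 3 of 23 other kinesins with a window and 17.5% of protein-coding genes. A CCAAT box was present for 10 of the 12, against 9 of the 23 and 42.1% of protein-coding genes. Both were found for 9 of the 12, against 3 of the 23 and 7.28% of protein-coding genes. In the 9 mitotic kinesins with both, a CCAAT box lay before the hexamer, with between 4 bases (KIF23) and 117 bases (KIF20B) between them. The first base of the hexamers lay between positions -55 and 31 from the start site, taking 1 window a gene. A match of letters does not show binding, and the counts carry no test.

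The sequences below run from 100 bases before to 20 bases after the RefSeq start, in the direction of transcription, with CHR hexamers and CCAAT boxes in capitals. They are shown because KIF20A, KIF4A and KIF15 are the mitotic kinesins that rose, because KIF23, KIF11, KIF18A and KIF22 show the pair of elements in genes that did not pass, and because KIF3C, a motor outside the mitotic list that rose, holds neither in its 1 window. KIF1B, another that rose, differed from KIF3C, since 2 of its 3 windows hold a CCAAT box and 0 hold a hexamer. No window was matched for KIF26B or KIFC3.
KIF20A, chr5:138179012-138179131, plus strand: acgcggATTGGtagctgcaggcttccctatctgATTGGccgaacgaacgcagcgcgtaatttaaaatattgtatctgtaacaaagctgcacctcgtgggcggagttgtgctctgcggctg
KIF4A, chrX:70290004-70290123, plus strand: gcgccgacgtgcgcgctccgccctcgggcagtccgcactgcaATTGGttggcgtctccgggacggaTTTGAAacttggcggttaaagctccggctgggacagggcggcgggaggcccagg
KIF15, chr3:44761694-44761813, plus strand: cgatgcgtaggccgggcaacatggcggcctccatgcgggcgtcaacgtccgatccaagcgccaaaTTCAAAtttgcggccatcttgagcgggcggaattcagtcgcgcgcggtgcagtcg
KIF23, chr15:69414249-69414368, plus strand: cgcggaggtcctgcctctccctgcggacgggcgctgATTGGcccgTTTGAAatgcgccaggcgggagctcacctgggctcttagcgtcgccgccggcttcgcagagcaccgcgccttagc
KIF11, chr10:92593030-92593149, plus strand: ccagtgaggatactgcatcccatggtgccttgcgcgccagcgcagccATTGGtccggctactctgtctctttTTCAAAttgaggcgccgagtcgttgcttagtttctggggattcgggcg
KIF18A, chr11:28108137-28108256, minus strand: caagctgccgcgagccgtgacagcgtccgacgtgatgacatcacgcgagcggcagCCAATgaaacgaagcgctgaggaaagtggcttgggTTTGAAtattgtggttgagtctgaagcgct
KIF22, chr16:29790651-29790770, plus strand: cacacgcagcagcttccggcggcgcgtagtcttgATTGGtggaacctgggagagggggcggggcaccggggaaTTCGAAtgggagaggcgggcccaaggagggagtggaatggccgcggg
KIF3C, chr2:25982478-25982597, minus strand: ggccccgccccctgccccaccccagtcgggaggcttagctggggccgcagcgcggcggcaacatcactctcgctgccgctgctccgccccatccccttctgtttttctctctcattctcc

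The 3 mitotic kinesins that rose thus differed in these elements. KIF4A held both a CCAAT box and a TTTGAA hexamer, KIF20A held 2 CCAAT boxes and no hexamer of these letters, and KIF15 held a hexamer and no CCAAT box. KIF2C, with a log2 fold change of 0.21, held neither in its window. Among the other kinesins, the 3 windows with a hexamer belonged to KIF5B, KIF24 and KIF4B. The KIF24 window (chromosome 9, 34329219 to 34329518) lay upstream of and apart from the counted gene, which spans 34252381 to 34311371.

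**Figure D4:**
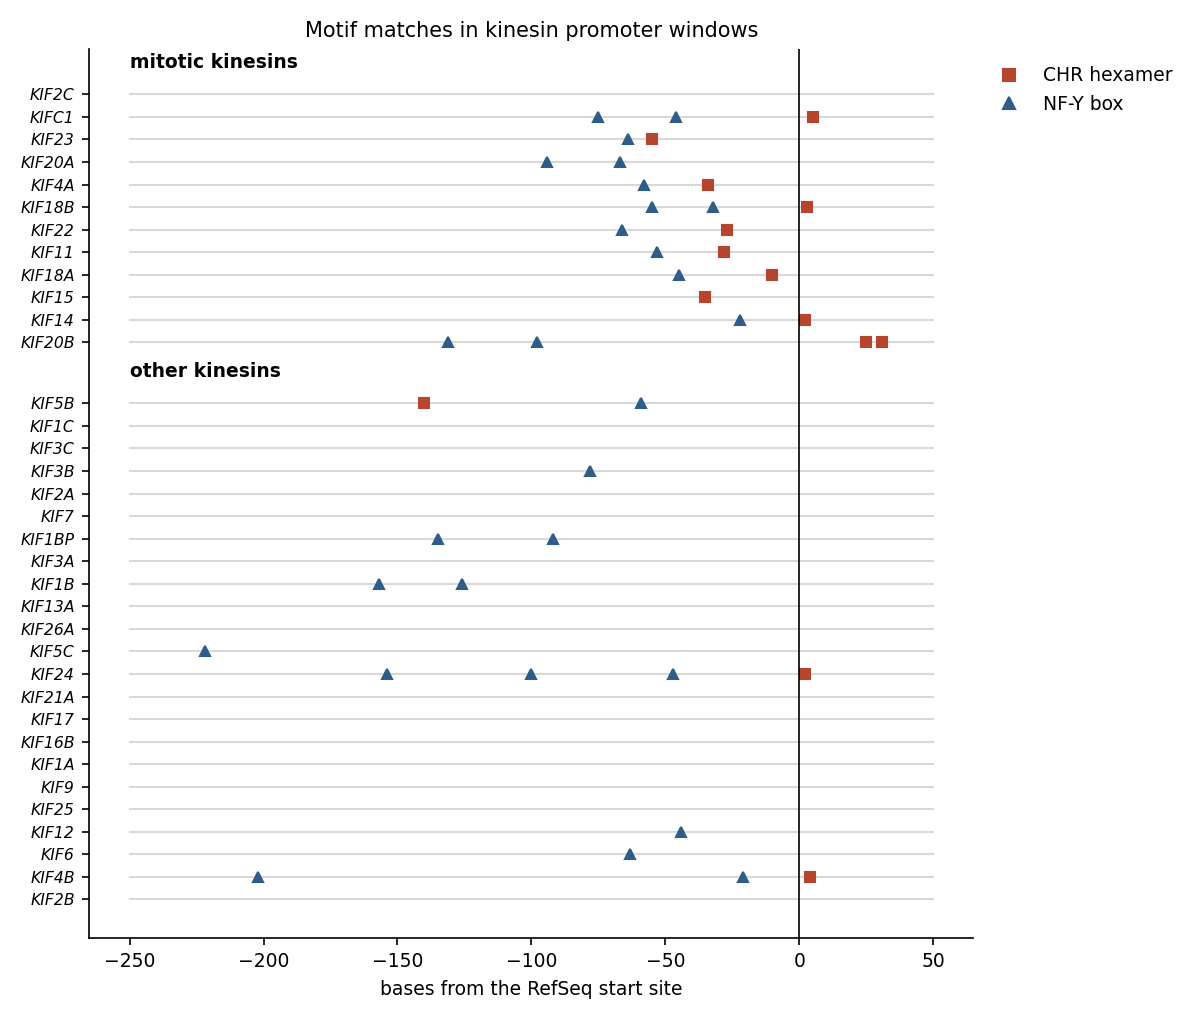
Position of CHR hexamers (squares) and CCAAT boxes bound by NF-Y (triangles) in promoter windows of kinesins, in bases from the RefSeq start site, with 1 window a gene (the one with most kinds of match). The windows of 9 of the 12 mitotic kinesins hold a triangle left of a square, and 3 of the 23 other kinesins with a window hold a square.

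The other kinesins went both ways. Of 26 that passed the count filter, KIF3C, KIF1B and KIF26B rose, KIFC3 fell and 22 did not pass, with a median log2 fold change of 0.01. The 3 that rose are 11.5% of the 26, against 3.57% of all kept genes, and the 1 that fell is 3.85%, close to the 4.12% of all kept genes. Both shGREM1 libraries lay above both shControl libraries for 7 of the 26 and below them for 5, against 27.0% and 26.6% of all kept genes, so these shares were like the background.

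KIF3C, a kinesin-2 subunit that pairs with KIF3A, had 164 and 157 CPM in shGREM1, against 115 and 102 CPM in shControl. The shGREM1 libraries were both the higher by a wide margin. KIF3C (ENSG00000084731, chromosome 2, 25926596 to 25982749, minus strand) rose 1.48-fold (log2 0.57 ± 0.11 SE, adjusted p = 0.00512 by edgeR), and passed in 14 of 15 alternative fits, all but the one without shControl-2 (edgeR adjusted p = 0.0589).

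The partners of KIF3C did not pass. KIF3A, the subunit common to both heterodimers of kinesin-2, had 52.2 and 54.4 CPM in shGREM1 and 52.8 and 64.1 CPM in shControl (log2 fold change -0.13, 95% interval -0.40 to 0.13). KIF3B, the alternative partner in intraflagellar and vesicle transport, had 97.5 and 111 CPM in shGREM1 and 99.2 and 103 CPM in shControl (log2 fold change 0.04, 95% interval -0.19 to 0.28). Both overlapped between the groups. KIFAP3, the cargo-binding subunit of the complex, had 27.9 and 26.6 CPM in shGREM1 and 24.8 and 28.6 CPM in shControl, and did not pass (edgeR adjusted p = 0.938). Per length, KIF3C made up 52.0% and 48.4% of the summed KIF3A, KIF3B and KIF3C FPKM in shGREM1, against 42.7% and 37.7% in shControl. KIF3B made up 32.5% and 35.9% in shGREM1, against 38.9% and 40.1% in shControl. KIF3A made up 15.5% and 15.6% in shGREM1, against 18.4% and 22.1% in shControl. The groups did not overlap in any of these shares. The shares add up to the whole, so the lower KIF3A and KIF3B shares are not results separate from the higher KIF3C share. With 2 libraries a group an exact two-sided permutation test of a share cannot go below p = 0.333, and none was made. KIF17, the kinesin-2 motor that works as a homodimer, had 8.54 and 10.6 CPM in shGREM1 and 16.97 and 10.2 CPM in shControl, and the groups overlapped (log2 fold change -0.51 ± 0.24; edgeR adjusted p = 0.221).

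**Figure D5:**
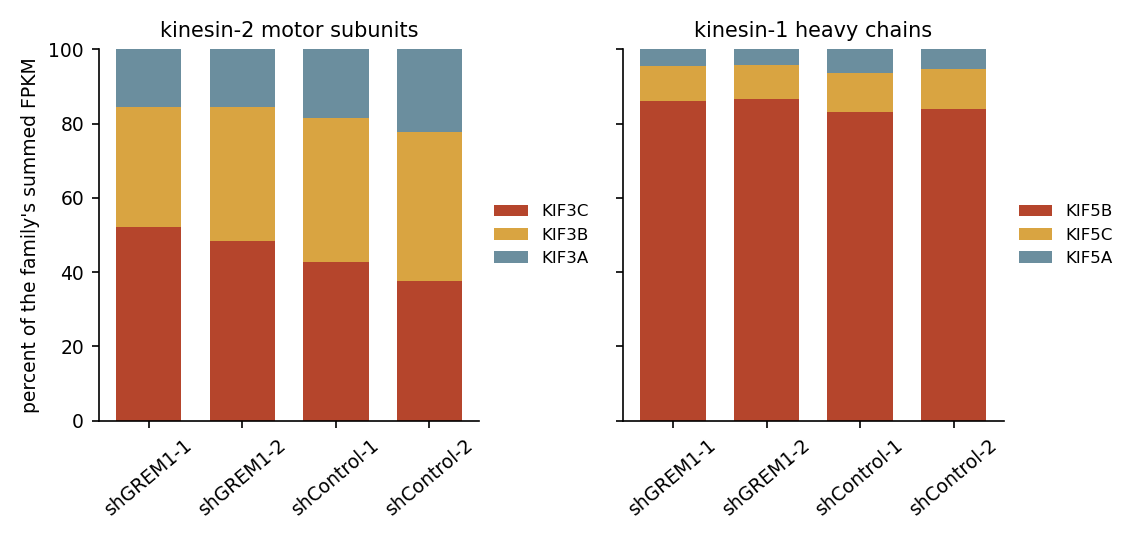
Share of each gene in the summed FPKM of the KIF3 subunits (left) and of the KIF5 heavy chains (right) in each library, with shGREM1 libraries left of shControl libraries. KIF3C takes 48.4% or more in shGREM1 and 42.7% or less in shControl, and KIF5B takes 83.0% or more of the summed KIF5 FPKM in each library.

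Kinesin-1 was made up mainly of KIF5B, at 86.0% and 86.5% of the summed KIF5 FPKM in shGREM1 and 83.0% and 83.8% in shControl. KIF5B had 197 and 186 CPM in shGREM1 and 183 and 203 CPM in shControl, with a log2 fold change of -0.01 (95% interval -0.24 to 0.22). Its neuronal relatives were lower in both shGREM1 libraries than in both shControl libraries without passing. KIF5C had 33.9 and 31.2 CPM in shGREM1 and 36.8 and 40.9 CPM in shControl (log2 fold change -0.26; edgeR adjusted p = 0.249), and KIF5A had 11.0 and 9.70 CPM in shGREM1 and 14.96 and 13.9 CPM in shControl (-0.47; 0.130).

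In the kinesin-3 family of long-range transporters, KIF1B, which moves mitochondria and synaptic vesicle precursors in neurons, had 136 and 167 CPM in shGREM1, against 97.7 and 111 CPM in shControl. The shGREM1 libraries differed from each other by more than those of shControl, but both lay above them. KIF1B (ENSG00000054523, chromosome 1, 10210805 to 10381603, plus strand) rose 1.45-fold (log2 0.54 ± 0.12 SE, adjusted p = 0.0144 by edgeR), and did not pass without shControl-1 (0.133). Its gene model of 17720 bases is the longest of the 43, and after the length and GC correction its log2 fold change was 0.46 (edgeR adjusted p = 0.0213).

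KIF1C, a close relative that moves vesicles in many cell types, had 280 and 305 CPM in shGREM1, against 249.4 and 202 CPM in shControl. The groups were apart, but the shControl libraries differed from each other by more than the gap between the groups (log2 fold change 0.37 ± 0.12; edgeR adjusted p = 0.0698). It passed in 6 of 15 alternative fits, among them upper-quartile scaling (0.0441) and the fit of protein-coding genes only (0.0427). KIF13A and KIF13B, which carry endosomal and membrane cargo, had log2 fold changes of -0.02 and 0.04, with 95% intervals of -0.26 to 0.22 and -0.21 to 0.28. KIF16B, an endosomal motor, and KIF1A, a neuronal vesicle motor, had 0.10 and -0.15 and did not pass. KIF1BP, the kinesin-binding protein gene, had 48.4 and 45.5 CPM in shGREM1 and 56.2 and 46.7 CPM in shControl (-0.13; edgeR adjusted p = 0.58).

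KIFC3, a minus-end motor of the kinesin-14 family linked to apical transport and adherens junctions, was the kinesin that fell. It had 169 and 203 CPM in shGREM1, against 276 and 279 CPM in shControl. The shControl libraries nearly coincided, and both shGREM1 libraries lay well below them. KIFC3 (ENSG00000140859, chromosome 16, 57758217 to 57863053, minus strand) fell to 0.669 of the shControl level (log2 -0.58 ± 0.11 SE, adjusted p = 0.00651 by edgeR) and passed in all 15 alternative fits, those with a library left out included. The antisense gene AC092118.2, which shares 4.59% of the KIFC3 exon bases, averaged 0.246 CPM in shGREM1 and 0.680 CPM in shControl. KIFC2, another motor of the family outside the mitotic list, had 219 and 302 CPM in shGREM1 and 277 and 243 CPM in shControl. Its log2 fold change was 0.00 with a 95% interval of -0.31 to 0.32.

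KIF26B, a member of the kinesin-11 family whose motor domain lacks ATPase activity, had 73 and 127 counts in shGREM1, against 36 and 50 counts in shControl. It is a low gene, at 4.45 and 7.90 CPM in shGREM1 and 2.33 and 3.24 CPM in shControl, and shGREM1-2 carried the larger part of the difference. KIF26B (ENSG00000162849, chromosome 1, 245154985 to 245709431, plus strand) rose 2.21-fold (log2 1.15 ± 0.33 SE, adjusted p = 0.0465 by edgeR). It passed in 7 of 15 alternative fits, was removed by a mean CPM filter of 5, and failed with DESeq2 (adjusted p = 0.0819), limma-voom (0.0897), no robust estimation (0.0612), the length and GC correction (0.0566) and without shGREM1-2 (0.298), shControl-1 (0.256) or shControl-2 (0.0511). Its log2 fold change was 0.68 without shGREM1-2 and 1.501 without shGREM1-1. Its paralog KIF26A had 31.1 and 33.8 CPM in shGREM1 and 26.0 and 27.3 CPM in shControl, with a log2 value of 0.28 (edgeR adjusted p = 0.214).

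Kinesins tied to the cilium and to centrioles did not pass. KIF7, a regulator of hedgehog signalling at the ciliary tip, had 44.0 and 58.8 CPM in shGREM1 and 61.4 and 57.3 CPM in shControl (log2 fold change -0.21; edgeR adjusted p = 0.4). Its exons share 589 bases with TICRR on the opposite strand, which rose (0.43; edgeR adjusted p = 0.032), and the strand setting of the counting is not given in the sources used here. KIF24, a depolymerase of the mother centriole, had 25.9 and 27.0 CPM in shGREM1 and 21.9 and 19.0 CPM in shControl (0.37; edgeR adjusted p = 0.139), with the groups apart. KIF9, KIF19 and KIF27 had log2 fold changes of 0.08, 0.06 and -0.14 and wide intervals, KIF19 from -0.94 to 1.06. KIF2A, a depolymerase of spindle poles and neurites that the rule leaves outside the mitotic list, had 76.1 and 67.9 CPM in shGREM1 and 68.3 and 74.7 CPM in shControl, a log2 fold change of 0.01 with a 95% interval of -0.23 to 0.25. KIF21A and KIF21B, which restrain microtubule growth, had log2 fold changes of 0.11 and -0.43 (edgeR adjusted p = 0.715 and 0.134).

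Among genes whose proteins work with the mitotic kinesins on the spindle, INCENP, DLGAP5, RACGAP1 and CIT rose. Of the 23 spindle and midzone partners, 4 rose (17.4%), 0 fell and 19 did not pass, against 3.57% that rose and 4.12% that fell among all kept genes. The log2 fold change lay above 0 for 22 of the 23, against 50.6% of all kept genes, and its median was 0.29. For 19 of the 23 both shGREM1 libraries lay above both shControl libraries, against 27.0% of all kept genes, and no test of the list was made. The groups overlapped for AURKA, CDCA8, CLASP2 and PLK1, with log2 fold changes of -0.08, 0.20, 0.01 and 0.02. PRC1, counted among the 19, had few counts, with 31 and 39 in shGREM1 and 29 and 21 in shControl. Exon overlap with other genes was checked for kinesins only, so its counts need not give its level. INCENP, a subunit of the chromosomal passenger complex that KIF20A carries, had 138 and 141 CPM in shGREM1, against 105 and 95.5 CPM in shControl (log2 fold change 0.48 ± 0.11; edgeR adjusted p = 0.0140). RACGAP1, which binds KIF23 in centralspindlin, had 153 and 140 CPM in shGREM1, against 111 and 109 CPM in shControl (0.42 ± 0.11; edgeR adjusted p = 0.0262). CIT, the citron kinase gene, had 128 and 123 CPM in shGREM1, against 96.3 and 94.6 CPM in shControl (0.40 ± 0.11; edgeR adjusted p = 0.0319). DLGAP5, a spindle assembly factor, rose as well (0.46). STMN1, a tubulin-binding protein gene, and CKAP5, a microtubule polymerase gene, had log2 fold changes of 0.17 and 0.24 and did not pass. None of the 4 that rose passed without shControl-2, DLGAP5, RACGAP1 and CIT did not pass without shControl-1, and RACGAP1 did not pass without shGREM1-1 (0.0561).

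CENPE, the kinetochore kinesin that the naming rule misses, had 92.1 and 78.7 CPM in shGREM1, against 61.9 and 61.6 CPM in shControl, and rose (log2 fold change 0.47 ± 0.12; edgeR adjusted p = 0.0221). It did not pass after the length and GC correction (0.068) or without shGREM1-1 (0.0817), shControl-1 (0.101) or shControl-2 (0.0879). STARD9, a centrosomal kinesin, had 0.01.

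Among 15 transcriptional regulators of G2/M genes, MYBL2 and RBL1 rose (13.3%), 0 fell and 13 did not pass, against 3.57% that rose and 4.12% that fell among all kept genes. The median log2 fold change of the 15 was 0.14. Both shGREM1 libraries lay above both shControl libraries for 7 of the 15 (46.7%) and below them for 2 (13.3%). Over all kept genes these shares were 27.0% and 26.6%, and no test of the list was made. MYBL2, which encodes the B-Myb subunit of the activating MMB complex, had 274 and 292 CPM in shGREM1, against 225 and 179 CPM in shControl (0.49 ± 0.12; edgeR adjusted p = 0.0220), and RBL1, which encodes the p107 subunit of the repressing DREAM complex, had 31.4 and 32.3 CPM in shGREM1, against 21.8 and 19.2 CPM in shControl (0.64 ± 0.14; edgeR adjusted p = 0.0126). Activating and repressing subunits were thus both among the genes that rose, and neither passed without shControl-2 (0.272 and 0.101). FOXM1, a transcription factor of G2/M genes, had 260 and 268 CPM in shGREM1 and 240 and 204 CPM in shControl (0.25; edgeR adjusted p = 0.188), and RBBP4, a shared subunit, had 0.25 (0.154). The NF-Y subunit genes NFYA, NFYB and NFYC had log2 fold changes of -0.07, 0.04 and -0.32 and did not pass.

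Few genes of the cargo transport machinery passed. Of 20 kinesin light chains and cargo adaptors, CLSTN1, which encodes the kinesin-1 adaptor calsyntenin 1, rose (log2 fold change 0.46; edgeR adjusted p = 0.0165), 0 fell and 19 did not pass, with a median of 0.08. KTN1 and MAPK8IP3, further kinesin-1 partners, had -0.01 and 0.18. Of 28 kept genes of dynein, dynactin and their regulators, NUMA1, a spindle pole protein that recruits dynein, rose (0.39; edgeR adjusted p = 0.0345), 0 fell and 27 did not pass, with a median of 0.11, and the motor subunit gene DYNC1H1 and the dynactin gene DCTN1 had -0.06 and 0.17. CLSTN1 and NUMA1 each lost their call when either shControl library was left out. Of 16 kept tubulin genes, TUBB6 fell to 374 and 294 CPM in shGREM1, against 564 and 440 CPM in shControl (log2 fold change -0.59; edgeR adjusted p = 0.0312), 0 rose and 15 did not pass, with a median of -0.10. The 1 that fell is 6.25% of the 16, against 4.12% of all kept genes. TUBB6 did not pass after the length and GC correction (0.0707) or without shControl-1 (0.228). TUBB and TUBA1B, the tubulin genes with the highest mean CPM among those that did not pass, had log2 fold changes of 0.03 and -0.07. TUBB4B, which stood above TUBA1B by FPKM, had 389 and 358 CPM in shGREM1 and 502 and 389.9 CPM in shControl (log2 fold change -0.26; edgeR adjusted p = 0.237). Tubulin genes are similar in sequence, so reads could be split between them. The genes that rose were 5% of the adaptors and 3.57% of the dynein and dynactin genes, near the 3.57% of all kept genes. Both shGREM1 libraries lay above both shControl libraries for 13 of the 28 dynein and dynactin genes (46.4%), against 27.0% of all kept genes. They lay below for 6 (21.4%), against 26.6% of all kept genes. For the adaptors these shares were 25% above and 15% below, and for the tubulins 18.8% and 25%. No test of these lists was made.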

How the data were processed

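The authors deposited raw counts per gene for 4 U2OS libraries. The submitters' processing notes list, with no role or order, the tools HISAT2 2.0.5, StringTie 1.3.3b and DESeq2 and the mouse build mm10. All 58735 genes match GENCODE 29 (human, GRCh38) in identifier, position, strand and symbol, while which program counted the reads, and whether by strand, is not given in the sources used here. The columns SHG11 and SHG12 were taken for the shGREM1 libraries, and NC1 and NC2 for the shControl libraries, from the abbreviations alone. CPM and FPKM were computed here, FPKM with the deposited gene length.

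Low genes were removed with filterByExpr (count 10, total 15), and the rest were scaled by TMM and tested with edgeR 4.0.16 in R 4.3.3 (quasi-likelihood F test, robust, group only). P-values were adjusted by Benjamini-Hochberg over all 18442 kept genes. SE came from the F statistic. Alternatives, including DESeq2 1.42.0 and limma 3.58.1 (voom), changed 1 choice at a time. In fits without a library, the remaining single library was taken to vary as much as the pair of the other group does. The test was checked on simulated counts, where it recovered 25.4% of 1.5-fold, 65.7% of 2-fold and 90.9% of 4-fold changes. Of the calls in the simulation, 3.2% were false. The largest change of a mitotic kinesin, 1.44-fold for KIF15, was below the smallest change simulated.

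Named genes were all mitotic kinesins, every other kinesin that passed, the 12 highest others by FPKM, and of each partner list up to 5 that passed and the 2 most abundant that did not. KIF1A, KIF5A, KIF9, KIF16B, KIF17, KIF19, KIF21A, KIF21B, KIF24, KIF27, KIFAP3, TUBB4B and the NF-Y genes were added after their values were seen. So were the spindle partners AURKA, CDCA8, CLASP2, PLK1 and PRC1. The genes and lists were chosen with earlier results of these data known. Promoter windows are RefSeq's (GRCh38.p14). Figures used matplotlib 3.10.9.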

Additional observations from a re-analysis of the deposited data

How the results depend on the processing

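With 2 libraries a group and 15492826 to 16353015 counts each, a p that missed the threshold does not show equal levels. Of the 7 kinesin calls, that of KIFC3 passed in all 15 alternatives, those of KIF3C and KIF1B in 14, those of KIF15, KIF20A and KIF4A in 13 and that of KIF26B in 7. The number of mitotic kinesins that rose was 3, and between 0 and 4 when single libraries were left out, while 0 fell in each of the 15 alternatives. Among other kinesins 3 rose and 1 fell, and when single libraries were left out between 1 and 4 rose and between 2 and 3 fell, where 1.35% to 5.11% of all genes rose and 1.94% to 5.69% fell, with medians of the log2 fold change from -0.0844 to 0.0552. Without a count filter 2 of them fell, KIF21B in addition to KIFC3, where 3.2% of all genes fell. With the replicate number as a block, 5 mitotic kinesins rose (KIF14 and KIF18A in addition), where 5.97% of all genes rose, and 2 other kinesins fell (KIF21B in addition), where 6.90% fell. The labels do not say whether the replicate numbers pair the libraries, and the main fit did not pair them. The deviations of shGREM1-1 and shControl-1 from their group means correlated at -0.00703. With 2 libraries a group there is only 1 such correlation, and it cannot decide whether the numbers pair.

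Genes near 0 that did not pass changed the sign of their log2 fold change. With upper-quartile scaling it was 0.0133 for KIF13A, 0.0235 for KIF5B and 0.0185 for KTN1, and with total count scaling 0.00113, 0.0105 and 0.00562 for these genes. KIF5B had 0.00462 with a mean CPM filter and 0.00739 among protein-coding genes only, where KTN1 had 0.00240. Without a count filter KIFC2 had -0.00514 and STARD9 -0.00239, and with limma-voom -0.0114 and -0.00127. KIFC2 had -0.0107 with the replicate block. With the length and GC correction KIF2A had -0.0181 and STARD9 -0.0427. When single libraries were left out, the log2 fold change ranged between -0.0844 and 0.0428 for KIF13A, between -0.102 and 0.167 for KIF13B, between -0.00924 and 0.318 for KIF18B, between -0.264 and 0.00129 for KIF1BP, between -0.0743 and 0.0905 for KIF2A, between -0.274 and 0.00928 for KIF3A. It ranged between -0.0539 and 0.136 for KIF3B, between -0.0878 and 0.0601 for KIF5B, between -0.244 and 0.216 for KIFC2, between -0.0877 and 0.0495 for KTN1, between -0.127 and 0.181 for TUBB, between -0.218 and 0.0834 for TUBA1B and between -0.150 and 0.149 for STARD9. The causes were not tested.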
